A study of Mus musculus with 4 samples.

Results

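Ribosomal protein pseudogenes were followed in mouse embryonic fibroblasts (MEFs) treated with pigment epithelium-derived factor (PEDF), a secreted glycoprotein of the serpin family. The members were all rows of the count table whose gene symbol starts with Rpl or Rps and ends in -ps with or without a number. This rule gave 319 of the 55487 genes counted. The MEFs were wild-type cells prepared from C57BL/6J embryos, grown in medium with fetal bovine serum, and either left untreated or given 100 ng/mL PEDF, with RNA taken 24 h later. There were 2 experiments with their own embryos, and each gave 1 control library and 1 PEDF library of polyadenylated RNA. The cells were at passage 2 according to the sample labels. A later passage is given in the text of the study. MEFs are a mixed primary culture and not a clonal line.

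A ribosomal protein is made in mammals from 1 main gene with introns. Its mRNA is among the most abundant in the cell, and copies of it have been written back into the genome many times by the reverse transcriptase of LINE-1 elements. Such processed pseudogenes lack the introns and usually the promoter of the parent gene, and young copies differ from the parent's mRNA at few bases. A sequencing read from the mRNA can therefore match the parent and a copy almost equally well.

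The libraries held 14722848 to 18144640 counts, and 3 counts corresponded to 0.168 to 0.203 CPM, which are counts scaled to a common library size with the TMM factors of edgeR. All 10 fibroblast markers were above 1 TPM, a unit corrected for gene length and library size, on average. Their summed level was 16629 TPM in control 1, 14760 in PEDF 1, 19947 in control 2 and 16773 in PEDF 2, lower with PEDF in both experiments, and its part in the results was not tested. The summed level of 4 markers each was 43.4 to 51.2 TPM for macrophages, 5.92 to 6.24 for endothelium, 24.3 to 40.5 for epithelium, 146 to 201 for skeletal muscle and 227 to 274 for neural cells. All 4 epithelial and all 4 neural markers reached 1 TPM on average too. So did 3 macrophage, 3 skeletal muscle and 2 endothelial markers. In bulk RNA, a change in the number of cells and a change in RNA per cell cannot be told apart. The replicate number of a library is the number of its experiment.

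Of the 319 members, 302 are annotated as processed pseudogenes, 9 as transcribed processed pseudogenes, 7 as protein-coding genes and 1 as a long intergenic RNA. They are copies of 63 parent genes, taken as the symbol before -ps, and 318 members have a parent by this rule. Rpl31 and Rps12 have 24 copies each, while 18 parents have 1 copy. Alignment to the parent's coding transcripts was possible for 317 members, with a median identity of 96.0% and a lowest identity of 68.1%. The median annotated length was 463 bases, and the range was 151 to 2871. An open reading frame over the parent's whole coding sequence was intact in 127 members, and in 33 of them it encoded the protein of the parent without a change. On the X chromosome lay 37 members (11.6%).

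The sequences of 7 members are set beside the matching stretch of their parent's coding sequence, as 100-base windows chosen to hold the most differences, to show how little separates the copies that collected reads. The windows are from GENCODE release M21 on the mouse build mm10 and are written 5′ to 3′, with the bases that differ between copy and parent in capitals. Rps27a encodes a fusion of ubiquitin with a small-subunit protein, and its copy Rps27a-ps2 (window at chr9:83409984-83410083, plus strand) differed from the parent at 1 base over its entire annotated length.
Rps27a-ps2: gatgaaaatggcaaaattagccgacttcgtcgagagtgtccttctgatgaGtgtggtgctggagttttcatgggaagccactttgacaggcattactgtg
Rps27a: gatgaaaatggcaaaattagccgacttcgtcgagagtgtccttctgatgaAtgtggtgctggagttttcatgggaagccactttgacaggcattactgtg
Rpl14 and Rps7 encode proteins of the large and the small subunit. Rpl14-ps1 (chr7:45325481-45325580, plus strand) and Rps7-ps3 (chrX:152909997-152910096, minus strand) were the members with the largest and the third largest counts.
Rpl14-ps1: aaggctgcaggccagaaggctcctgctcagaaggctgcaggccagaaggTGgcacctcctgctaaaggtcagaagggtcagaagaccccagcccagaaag
Rpl14: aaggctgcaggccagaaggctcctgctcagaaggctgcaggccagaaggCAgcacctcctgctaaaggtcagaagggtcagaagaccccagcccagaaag
Rps7-ps3: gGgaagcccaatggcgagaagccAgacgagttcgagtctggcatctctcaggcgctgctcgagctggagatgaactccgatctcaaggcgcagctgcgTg
Rps7: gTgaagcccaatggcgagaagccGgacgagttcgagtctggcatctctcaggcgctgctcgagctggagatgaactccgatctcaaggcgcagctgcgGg
Rps10 encodes a small-subunit protein, and Rps10-ps2 (chr16:20822159-20822258, minus strand) held far more counts than the parent. All 5 of its differences from the parent fall in this window.
Rps10-ps2: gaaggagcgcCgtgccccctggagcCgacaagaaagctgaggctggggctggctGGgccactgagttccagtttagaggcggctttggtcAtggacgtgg
Rps10: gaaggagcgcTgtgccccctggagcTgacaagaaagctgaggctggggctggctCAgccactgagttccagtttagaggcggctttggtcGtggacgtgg
Rps25-ps1 (chr6:145266523-145266622, plus strand) and Rps26-ps1 (chr8:107439244-107439343, minus strand) were among the members whose libraries differed most from each other. Their parents encode small-subunit proteins too.
Rps25-ps1: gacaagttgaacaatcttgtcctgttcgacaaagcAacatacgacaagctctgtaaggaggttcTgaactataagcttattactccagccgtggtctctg
Rps25: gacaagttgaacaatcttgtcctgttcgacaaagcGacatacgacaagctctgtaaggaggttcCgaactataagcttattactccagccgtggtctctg
Rps26-ps1: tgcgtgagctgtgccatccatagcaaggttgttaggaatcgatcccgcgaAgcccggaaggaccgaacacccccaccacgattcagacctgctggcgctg
Rps26: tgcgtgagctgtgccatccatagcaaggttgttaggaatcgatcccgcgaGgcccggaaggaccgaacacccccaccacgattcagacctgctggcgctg
Rps12-ps26 (chr11:107172121-107172220, minus strand) is shown as a more diverged copy, with 8 differences in its window and 14 counts in all 4 libraries together.
Rps12-ps26: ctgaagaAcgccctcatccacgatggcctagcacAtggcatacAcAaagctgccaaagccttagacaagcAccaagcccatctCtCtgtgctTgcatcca
Rps12: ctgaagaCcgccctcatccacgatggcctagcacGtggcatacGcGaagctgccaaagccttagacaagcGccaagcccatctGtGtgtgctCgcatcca

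Counts on the members followed their likeness to the parent where at least 50% of the member aligned. No count was found on 141 members, 59 had 1 to 9 counts in total, and 119 had the 10 counts needed for testing. At least 100 counts fell on 54 members and at least 1000 on 22. Among the 13 members identical to their parent's transcript over their entire length, all 13 had 10 counts or more, with a median of 1070. Among the 62 members with 1 to 5 differences (mismatches and gaps), 54 had 10 counts or more and the median was 85.5. With 6 to 20 differences, 39 of 106 members reached 10 counts with a median of 4, and with more than 20 differences 10 of 131 did with a median of 0. Another 5 members aligned over less than 50% of their length, and 3 of them reached 10 counts, with a median of 15. The members with up to 5 differences took 17.4% (identical) and 69.3% (1 to 5) of all counts on members. Spearman's rho between identity and total count was 0.792 over 312 members, given as a description, since members of one parent are not independent of each other. With the total count of the parent, rho was 0.0417.

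**Figure D1:**
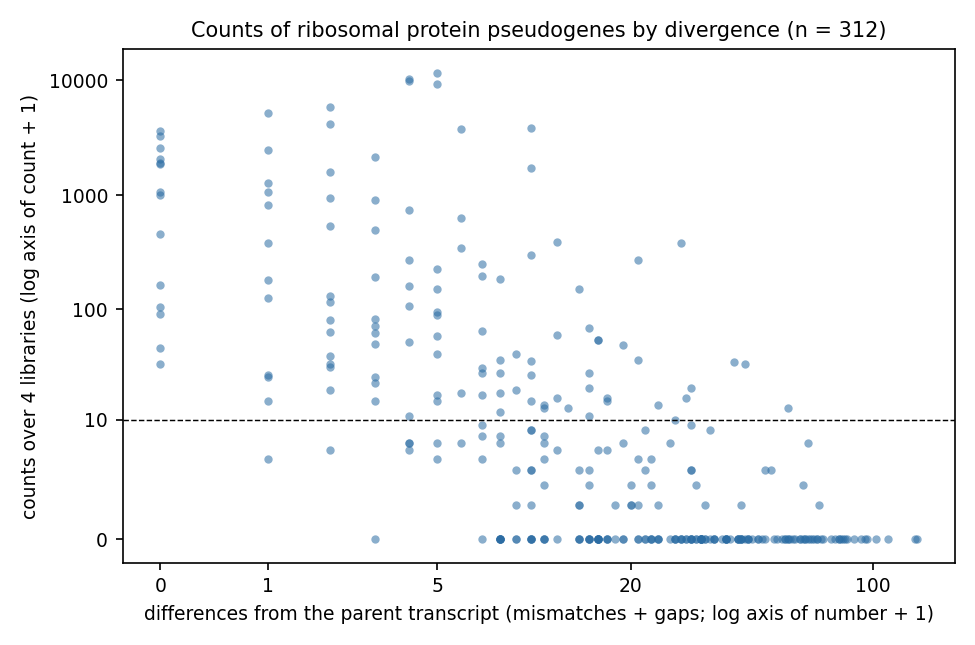
Counts over the 4 libraries (vertical log axis of count + 1) against the number of mismatches and gaps to the parent transcript (horizontal log axis of number + 1), 1 point for each of 312 members with at least 50% of their length aligned. The dashed line marks 10 counts, and all 13 points at 0 differences lie above it, while most points beyond 20 differences lie at 0 counts.

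The same order was seen when the members were described by stretches that no other annotated transcript holds. The reads were aligned to the genome, so this does not give what a read could tell apart, and it is not independent of identity. A window of 100 bases was called unique if no other annotated transcript held the same letters on either strand. Of 155 members with more than 90% unique windows, 14 had at least 10 counts and 111 had none. Of 39 members with less than 10% unique windows, 27 had at least 10 counts. The counts are of uniquely mapped reads, yet the 13 identical members, which had no unique window, held 4241 to 4956 counts per library. Rps16-ps2, a copy of a small-subunit gene inside an intron of Adgrd1 on the opposite strand, had 813 counts in control 1, 887 in PEDF 1, 914 in control 2 and 989 in PEDF 2. Its sequence at chr5:129128418-129128517, minus strand equals the first 100 coding bases of Rps16.
Rps16-ps2: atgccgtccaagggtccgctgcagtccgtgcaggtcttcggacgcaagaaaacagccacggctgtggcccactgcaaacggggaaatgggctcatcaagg
For Rps12-ps3, identical to its parent over 494 bases, the counts were 865 in control 1, 865 in PEDF 1, 743 in control 2 and 802 in PEDF 2. Rpl31-ps8 had 643, 634, 593 and 689 in the same order. These levels were close between the conditions, and the groups overlapped for Rps12-ps3 and Rpl31-ps8.

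Annotated position was also examined. Another gene overlapped the member on the same strand in 36 cases and only on the opposite strand in 64, and 219 members overlapped no other gene. At least 10 counts were found for 19 of the 36, 32 of the 64 and 68 of the 219. Members free of any other gene held 51.3% of all member counts. Among the 10 members with more than 20 differences and at least 10 counts, the largest count was 380, on Rpl7-ps9, which overlaps no gene. Its libraries gave 76, 99, 84 and 121 counts for control 1, PEDF 1, control 2 and PEDF 2.

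A few members held most of the counts. The 15 with the largest counts took 76.5% of all counts on members, and the first 4 took 39.3%. Rpl14-ps1 lies within an intron of Trpm4 on the opposite strand and had 2584 counts in control 1, 3033 in PEDF 1, 2948 in control 2 and 3148 in PEDF 2. Rpl17-ps10, a copy of a large-subunit gene, had 2065, 3082, 2363 and 2714 in that order. Rps7-ps3 on the X chromosome, in an intron of another gene on the same strand, had 2206, 2823, 2218 and 2701. The part of reads from that gene in its counts was not tested. Rps10-ps2 had 2043, 2447, 2285 and 2495. For these 4 members each PEDF library was above both control libraries in CPM. Per length, on the TPM scale, Rps10-ps2 stood at 748 to 870, Rpl17-ps10 at 691 to 979 and Rpl14-ps1 at 733 to 819, so these ranges overlapped and the order of the 3 was within the spread of the libraries.

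**Figure D2:**
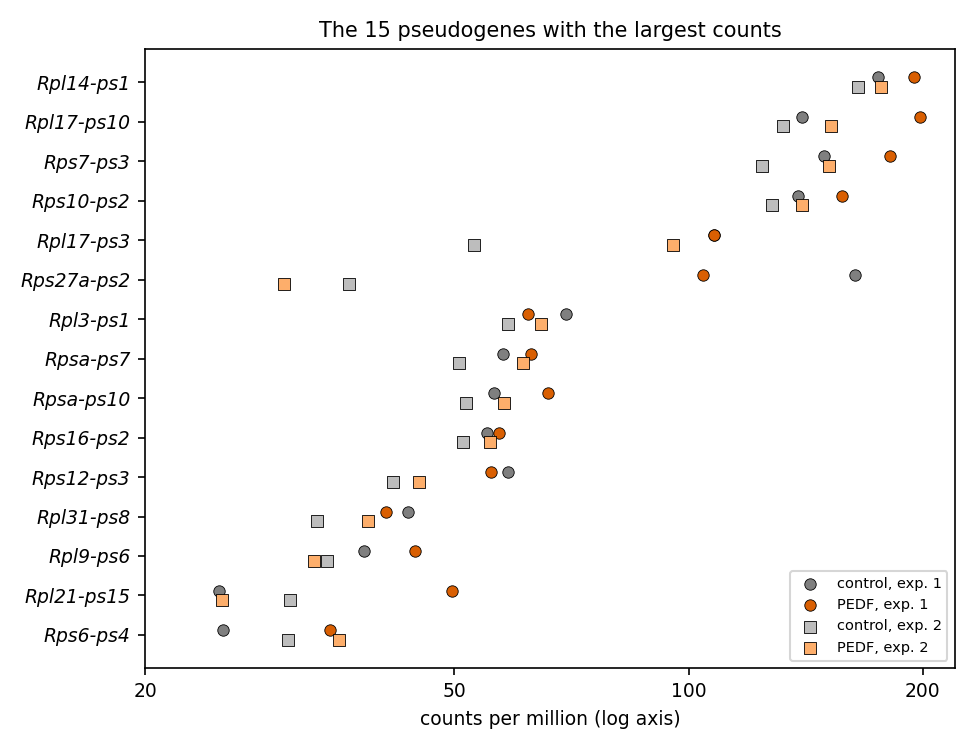
CPM (horizontal log axis) of the 15 members with the largest counts in each of the 4 libraries, with circles for experiment 1, squares for experiment 2, grey for control and orange for PEDF. The 4 points of most members lie close together, while those of Rps27a-ps2 run from 30.2 to 164 CPM.

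Among the other large members, Rpsa-ps7 and Rpsa-ps10 are copies of Rpsa, which encodes a small-subunit protein also known as a laminin receptor. Rpsa-ps7 had 57.7 CPM in control 1, 62.8 in PEDF 1, 50.6 in control 2 and 61.2 in PEDF 2, and Rpsa-ps10 had 56.2, 65.9, 51.8 and 57.8. Rpl3-ps1, a copy of the gene of a large-subunit protein near the catalytic centre, had 69.5, 62.2, 58.6 and 64.5 CPM, so control and PEDF libraries overlapped. Rpl9-ps6 is annotated as protein-coding and had 38.2, 44.5, 34.3 and 33.0 CPM. Rpl28-ps1 had 27.8, 32.4, 24.9 and 28.1 CPM, with both PEDF libraries above both control libraries by a small margin.

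Summed over all members, the level was 1691 CPM in control 1, 1817 in PEDF 1, 1352 in control 2 and 1543 in PEDF 2. The members thus took 0.133% to 0.184% of a library. Within each experiment the PEDF library was the higher, by 0.10 on the log2 scale in experiment 1 and by 0.19 in experiment 2, but control 1 exceeded PEDF 2. The means were 1522 ± 240 CPM in control and 1680 ± 194 CPM in PEDF-treated MEFs (SD, n = 2 each), a difference smaller than the spread within a group. The log2 ratio of the means was 0.14 with all libraries, 0.31 without control 1, 0.26 without PEDF 2, 0.02 without PEDF 1 and -0.01 without control 2. The summed level of the 63 parents differed by 0.05 in experiment 1 and 0.15 in experiment 2 on the same scale.

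PEDF was then compared with control gene by gene, with edgeR's quasi-likelihood test fitted over 19384 genes and no covariate. At an unadjusted p under 0.05, 8 of 119 tested members (6.72%) were higher in PEDF-treated MEFs, where 3.22% of all tested genes were, and 1 member (0.84%) was lower, where 3.66% of all genes were. After Benjamini-Hochberg adjustment no member passed in edgeR, and 0.00516% of all genes did, which is 1 gene. DESeq2 with treatment alone called 4 members (3.36%) at an unadjusted p under 0.05, against 1.98% of the same genes, and none after adjustment. Likewise limma on log2(TPM + 1) called 18 members (15.1%), against 4.97%, and none after adjustment. Both PEDF libraries lay above both control libraries for 29 members (24.4%, against 18.9% of all genes) and below both for 16 (13.4%, against 18.4%). PEDF was higher in both experiments for 43 members (36.1%, against 30.1%) and lower in both for 26 (21.8%, against 28.8%). The remaining 50 members went in opposite directions in the 2 experiments. The median log2 fold change of the 119 members was 0.09, with 70 above and 49 below 0, and that of all tested genes was 0.00. The tested members were short, with a median length of 525 bases against 3614 for all tested genes. With the experiment as a block and an offset for gene length, the median of the members was 0.02. Without the block, the median was 0.18 without control 1, 0.02 without PEDF 1, 0.015 without control 2 and 0.09 without PEDF 2.

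Since each experiment had its own embryos, a second fit had the experiment as a block. In that fit 17 members (14.3%) were higher and 3 (2.52%) lower at an unadjusted p under 0.05, against 7.18% and 7.38% of all genes. After adjustment 7 members (5.88%) were higher and 1 (0.84%) lower, against 1.67% and 2.07% of all genes. The 7 were Rpl17-ps10, Rpl17-ps3, Rps7-ps3, Rps6-ps4, Rpl7a-ps5, Rpl21-ps15 and Rps25-ps1, and the 1 was Rps27a-ps2. With the length offset added, 5 of the 8 passed (4 higher and 1 lower, 3.36% and 0.84% of the members, against 0.909% and 1.25% of all genes), namely Rpl17-ps10, Rpl17-ps3, Rps7-ps3, Rps25-ps1 and Rps27a-ps2. DESeq2 with the block called Rpl17-ps10 and Rps7-ps3 and gave no adjusted p for the other 6. The share of all genes called in that DESeq2 fit is not given here. The block leaves 1 residual degree of freedom per gene, so the spread is borrowed largely from other genes, and Rpl21-ps15 and Rpl7a-ps5 passed although they went in opposite directions in the experiments.

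**Figure D3:**
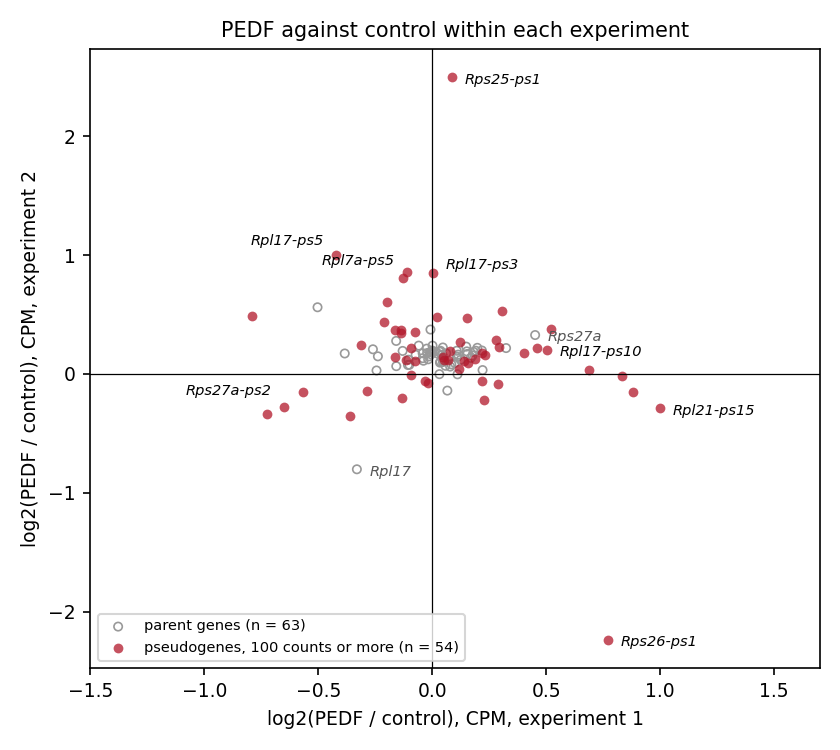
Log2 ratio of PEDF to control CPM in experiment 1 (horizontal) and experiment 2 (vertical), with red points for the 54 members with at least 100 counts and open grey circles for their 63 parents. Most parents lie near the origin, with Rpl17 below it. The parent Rps27 went in opposite directions, at -0.50 in experiment 1 and 0.56 in experiment 2. Rps25-ps1, Rps26-ps1 and Rpl21-ps15 lie far out in 1 experiment only or in opposite directions.

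Of the 7 members that rose with the block, Rpl17-ps10, Rps7-ps3 and Rps6-ps4 were higher with PEDF by at least 0.20 on the log2 scale in both experiments. Rpl17-ps10 had 140 CPM in control 1, 198 in PEDF 1, 132 in control 2 and 152 in PEDF 2, which is 0.50 in experiment 1 and 0.20 in experiment 2 on the log2 scale. Its log2 fold change was 0.36 ± 0.11 (SE) with an adjusted p of 0.696 in edgeR without the block, and 0.35 ± 0.05 with an adjusted p of 2.69e-09 with it. A fit with a library left out sets 1 library against 2, and the lone library is assumed to vary as the other pair and as other genes do, so its p-values are no replicated test of that condition. In such fits the change was 0.16 without PEDF 1, and without PEDF 2 it was 0.54 (adjusted p = 0.00428, edgeR). It also passed without the block when genes with low counts were kept (adjusted p = 0.00236, edgeR), and over the other settings without the block the adjusted p was 0.269 to 0.999. Rps7-ps3 had 149, 182, 124 and 152 CPM, and the ratio of PEDF to control was nearly the same in experiment 1 (0.28 on the log2 scale) and experiment 2 (0.29). Its adjusted p was 0.696 in edgeR without the block and 6.97e-06 with it, and 0.00837 with the length offset. Its change of 0.28 without the block was 0.15 without PEDF 1, 0.15 without control 2, 0.41 without PEDF 2 and 0.42 without control 1, where it passed with a lone control library (adjusted p = 0.0302, edgeR). The parent Rps7 was also higher in both experiments, by 0.19 and 0.20, so Rps7-ps3 took a like share of the counts on the pair in every library, from 22.6% to 23.9%.

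Rps6 encodes the small-subunit protein phosphorylated by S6 kinase, and Rps6-ps4 is identical to it over 750 bases. The copy had 25.2 CPM in control 1, 34.6 in PEDF 1, 30.6 in control 2 and 35.5 in PEDF 2, so both PEDF libraries were above both controls. The adjusted p with the block was 0.0110 in edgeR and 0.164 with the length offset. Without the block its change was 0.33 (adjusted p = 0.696, edgeR), and it was 0.20 without control 1 and 0.48 without control 2. The parent Rps6 was higher by 0.15 and 0.19 in the 2 experiments, and the copy took 3.65% to 4.74% of the counts of the pair.

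For other members a single library stood apart. Rps25-ps1 had 17 counts in control 1, 19 in PEDF 1, 19 in control 2 and 107 in PEDF 2. Its log2 fold change was 1.72 ± 0.79 (adjusted p = 0.746, edgeR without the block) and 0.14 without PEDF 2 against 2.43 without PEDF 1, and the adjusted p with the block was 3.63e-04. It also passed without the block when genes with low counts were kept (adjusted p = 0.00573, edgeR) and when PEDF 1 was left out, with PEDF 2 as the lone PEDF library (adjusted p = 0.00442, edgeR). The parent Rps25 had 6291, 6437, 6699 and 7337 counts, with no like rise in PEDF 2. Rps26-ps1 had 164, 295, 231 and 49 counts, so PEDF 1 was the highest and PEDF 2 the lowest library. Its log2 fold change of -0.18 turned to 0.65 without PEDF 2 and was -2.13 without PEDF 1, where the lone PEDF library was its lowest and the adjusted p was 1.88e-04 (edgeR). It did not pass with the block (adjusted p = 0.0907, edgeR). Rpl21-ps15, in an intron of Wnk3 on the opposite strand, had 367, 772, 548 and 448 counts. It was called with the block (adjusted p = 0.00337, edgeR) although PEDF was higher in experiment 1 and lower in experiment 2, and its change was 0.41 with all libraries, -0.15 without PEDF 1 and 0.83 without PEDF 2, with a lone PEDF library (adjusted p = 1.80e-04, edgeR). Rpl7a-ps5 had 428, 418, 311 and 564 counts and was called with the block (adjusted p = 0.00792, edgeR). Its change of 0.35 was 0.01 without control 2 and 0.75 without control 1, with a lone control library (adjusted p = 0.00331, edgeR).

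A wide spread between libraries was seen for some members with many counts. Of 54 members with at least 100 counts, 4 differed by 2-fold or more between the highest and the lowest library, namely Rps26-ps1, Rps25-ps1, Rps27a-ps2 and Rpl17-ps3, and none of the 63 parents did. The median ratio of the highest to the lowest CPM was 1.39 for these members, 1.18 for the parents and 1.20 for the 14324 genes with at least 100 counts. The counts behind these ratios are unequal, with a median total of 688 for these 54 members and 31205 for the parents, and the part of counting error in the ratio was not tested.

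In the Rpl17 family, the summed counts of the copies and those of the parent went in opposite directions. The parent Rpl17 had 2355 counts in control 1, 1972 in PEDF 1, 4108 in control 2 and 2354 in PEDF 2. Rpl17-ps3 on chromosome 12, which differs from the parent at 2 bases, had 1590, 1678, 946 and 1702. Control 2 thus had the highest count of the parent and the lowest of this copy. With the block Rpl17 fell by 0.58 on the log2 scale (adjusted p = 6.02e-26, edgeR; 0.696 without the block), while Rpl17-ps10 and Rpl17-ps3 rose. Rpl17-ps3 rose by 0.40 with the block (adjusted p = 2.98e-09, edgeR), but in the fit without the block its change was -0.08 without control 2 and 0.94 without control 1. There the lone control library was control 2, the lowest of the 4, and the adjusted p of 2.69e-07 (edgeR) takes its spread from the PEDF pair and from other genes. The share of Rpl17-ps10 in the counts of the pair was 46.7% in control 1, 61.0% in PEDF 1, 36.5% in control 2 and 53.6% in PEDF 2. The share of Rpl17-ps3 was 40.3%, 46.0%, 18.7% and 42.0% in the same order. The exact Clopper-Pearson intervals at 95%, which cover counting error only, did not overlap between control and PEDF in either experiment for these 2 copies. Over the parent and all 11 copies the sum was 426 CPM in control 1, 447 in PEDF 1, 426 in control 2 and 400 in PEDF 2. Fitted as 1 feature, the family changed by -0.01 ± 0.04 with the block (adjusted p = 0.955, edgeR).

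The Rps27a family showed the reverse pattern. The parent had 5712 counts in control 1, 8225 in PEDF 1, 7663 in control 2 and 9605 in PEDF 2, and Rps27a-ps2 had 2416, 1622, 653 and 538. The copy was the lower with PEDF in both experiments, and it was lower in both libraries of experiment 2 than in either of experiment 1. Rps27a rose by 0.39 with the block (adjusted p = 1.70e-15, edgeR; 0.279 without it), and Rps27a-ps2 fell by 0.51 (adjusted p = 4.82e-13; 0.9498 without it). Without control 1 the change of Rps27a-ps2 in the fit without the block was 0.87, without PEDF 2 it was 0.07, without PEDF 1 it was -1.72 and without control 2 it was -1.30, and its libraries differed more between the experiments than between the conditions. The copy took 29.7% of the counts of the pair in control 1 and 16.5% in PEDF 1, and 7.85% in control 2 and 5.30% in PEDF 2, with intervals that did not overlap within an experiment. With its 2 copies added, the family had 551, 634, 466 and 569 CPM and rose by 0.25 ± 0.04 with the block (adjusted p = 3.56e-06, edgeR), against 0.39 for the parent alone.

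**Figure D4:**
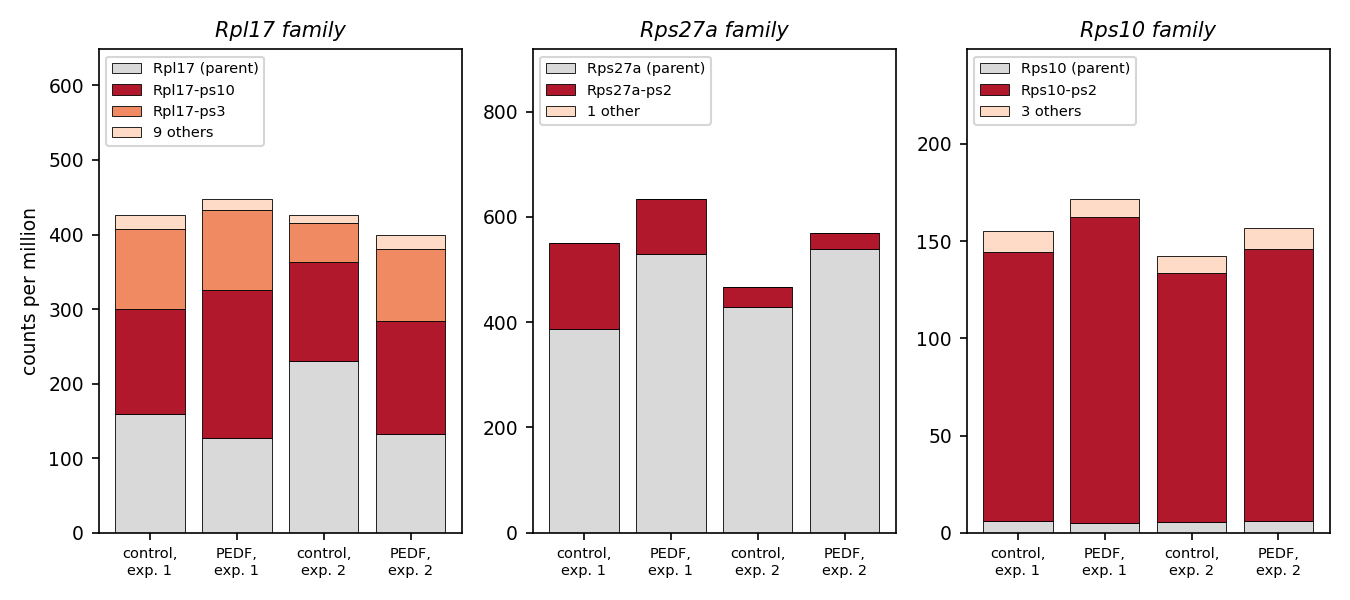
CPM of the parent (grey) and its copies (red shades) in the 4 libraries, stacked for the Rpl17, Rps27a and Rps10 families, each panel with its own linear axis from 0. The Rpl17 stacks have nearly equal heights of 400 to 447 CPM while their parts differ, and nearly all of each Rps10 stack is Rps10-ps2.

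The Rps10 family was nearly all counted on a copy. The parent had 90 counts in control 1, 80 in PEDF 1, 102 in control 2 and 104 in PEDF 2, and Rps10-ps2 took 95.7% to 96.8% of the counts of the pair. The 4 copies of Rps10 together took 96.3%. In the annotation, 400 of the 462 coding bases of 1 transcript of Rps10 are shared with exons of Gm49804 on the same strand. This is a read-through gene listed as RPS10-NUDT3, which had 0 counts. The window shown above for Rps10 reaches coding base 482 and is from another transcript. The part of Gm49804 in the low count of the parent was not tested. The counts of the family were higher with PEDF by 0.15 in experiment 1 and 0.14 in experiment 2 on the log2 scale, and the change of 0.15 ± 0.05 did not pass with the block (adjusted p = 0.0821, edgeR). Rps10-ps2 itself had an adjusted p of 0.0620 with the block.

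Across the 63 families the copies took a median of 0.975% of the counts on parent and copies. The share exceeded 10% in 11 families and was under 1% in 33. It was 61.4% for Rpl17, 26.4% for Rpl14, 23.3% for Rps7, 18.9% for Rpl21, 16.4% for Rps12 and 14.4% for Rps27a. These are shares of counts and are not corrected for length. With the block, 16 of 63 parents passed after adjustment. Of these, 15 (23.8% of the parents) were higher and Rpl17 (1.59%) was lower, where 1.67% and 2.07% of all genes were. With the length offset added 6 passed, of which 4 were higher (Rpl5, Rpl15, Rps13 and Rps27a) and 2 lower (Rpl17 and Rps29), where 0.909% and 1.25% of all genes were. With the members' counts added to their parent, none of the 63 families passed without the block, as none of the parents did, and 15 passed with it, all higher, where 1.66% of all genes fitted were called higher. These were the same genes as the 15 parents, and Rpl17 alone was lost.

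Further members past the unadjusted threshold, with or without the block, included 5 with 14 to 1062 counts in total. Rps18-ps3 had 8 counts in control 1, 19 in PEDF 1, 5 in control 2 and 18 in PEDF 2 (adjusted p = 0.696, edgeR). Rps12-ps26 lies in an intron of Nol11 on the same strand and had 9, 0, 4 and 1 counts (adjusted p = 0.696, edgeR), and no fold change is given since the PEDF libraries were under 3 counts. Rpl7a-ps11, a copy on the X chromosome, had 96, 145, 127 and 165 counts, and Rpl19-ps11 had 221, 308, 250 and 283. Both PEDF libraries were above both controls for Rpl7a-ps11 and Rpl19-ps11, and neither passed after adjustment with or without the block in edgeR. Rpl17-ps5 had 262, 206, 160 and 319 counts, with PEDF lower in experiment 1 and higher in experiment 2. Without control 1, with a lone control library, its change was 0.80 (adjusted p = 0.0363, edgeR), and its change was -0.18 without control 2.

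For comparison, the functional genes were described from a list of 79 cytosolic ribosomal protein genes. In edgeR without the block 6 (7.59%) were higher and 1 (1.27%) was lower at an unadjusted p under 0.05. Of all genes, 3.22% were higher and 3.66% lower. None of the 79 passed after adjustment. DESeq2 called 1 of the 63 parents after adjustment, and the share of all genes it called is not given here. With the block 19 of 79 (24.1%) were higher and 1 (1.27%) was lower after adjustment, where 1.67% and 2.07% of all genes were. With the length offset added 6 (7.59%) were higher and 2 (2.53%) lower, against 0.909% and 1.25%. The median total count was 32710 for these genes and 72 for the tested members, and their shares of calls were not compared by a test. Their median log2 fold change was 0.08, and 0.02 with the block and the length offset. PEDF was higher in both experiments for 42 of the 79 (53.2%) and lower in both for 1 (1.27%). Among the 119 members the shares were 36.1% and 21.8%, and among all tested genes they were 30.1% and 28.8%.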

How the data were processed

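The polyadenylated RNA of 4 MEF libraries was sequenced from both ends with a directional kit. Per the labels, the authors checked the reads with FastQC 0.11.7, trimmed them with Trimmomatic 0.38, aligned them to mm10 with HISAT2 2.1.0, and used featureCounts 1.6.3 to count reads that mapped to a single place. The deposited counts are whole numbers that are not normalized. The TPM values deposited beside them, which the authors computed per gene length and library, were used for limma, for marker levels and for levels per length. The strand setting, the treatment of reads shared by overlapping genes and the annotation release are not given in the sources used here. Of 55487 genes, 54784 had the coordinates of GENCODE M21, from which sequences, lengths and overlaps were taken.

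Counts were fitted in R 4.3.3 with edgeR 4.0.16 (TMM factors, robust quasi-likelihood test, p-values adjusted by Benjamini-Hochberg across all 19384 genes that reached 10 counts), without a covariate. SE were computed as the absolute log2 fold change divided by the square root of F. Members were aligned locally to each coding transcript of the parent, with a match score of 2 and a mismatch score of -3, and the best alignment was kept. According to the labels, separate embryos were used in each experiment, so the numbers pair the libraries. In 10722 genes (mean log2 CPM over 3), experiment 2 minus experiment 1 was correlated between control and PEDF libraries (r = 0.423, across genes, which are not independent). The experiment was therefore also fitted as a replicate block. The length offset was a natural spline of 5 degrees of freedom per library.

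The members and lists were chosen with earlier results of these data known. Named were the 15 members with the largest counts, those with an unadjusted p under 0.05 with or without the block, Rps25-ps1, and their parents. The other identical or diverged members were given as counts and ranges, and Gm49804 was named after its values were seen. The alternatives were DESeq2 1.42.0, limma 3.58.1 on log2(TPM + 1) and log2(TPM + 0.1), RLE factors, other filters on low counts, the block, the length offset, and each library left out in turn. Adding the members' counts to their parent, and leaving out members with 2-fold differences between libraries, were chosen after seeing the data. The scripts were tested on simulated data. P-values measure the spread between 2 libraries per condition, moderated across genes. With the block or with a library left out, 1 residual degree of freedom is left, and a lone library is assumed to vary like the other pair.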

Additional observations from a re-analysis of the deposited data

How the results depend on the processing

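The number of members with an unadjusted p under 0.05 was 9 and became 4 with DESeq2, 20 with the replicate block, 3 with DESeq2 and the block, 18 with limma on log2(TPM + 1), 16 with limma on log2(TPM + 0.1) and 3 to 15 with a library left out (15 without control 1, 3 without PEDF 1, 5 without control 2, 13 without PEDF 2). The number with an adjusted p under 0.05 was 0 and became 2 without the filter on low counts (Rpl17-ps10 and Rps25-ps1), 8 with the block, 2 with DESeq2 and the block, 5 with the block and length offset (4 higher, 1 lower) and 0 to 4 with a library left out (4 without control 1, 2 without either PEDF library, 0 without control 2). For the 63 parents it was 0 and became 1 with DESeq2, 3 without the filter, 16 with the block, 8 with DESeq2 and the block, 6 with the block and length offset (4 higher, 2 lower), 15 with the block and members added to their parent and 0 to 3 with a library left out (3 without control 1, 0 without any other). The median log2 fold change of the members was 0.09, and 0.024 with the block and length offset and 0.015 to 0.18 with a library left out (0.18 without control 1, 0.02 without PEDF 1, 0.015 without control 2). The log2 ratio of the summed level, 0.14, was 0.15 with the block, 0.17 without the 4 members with 2-fold differences between libraries, and -0.0094 to 0.31 with a library left out. It was 0.14 with DESeq2's size factors, RLE factors and either filter, and 0.11 from TPM. The other fits of that level (DESeq2 with the block, the length offset and limma) were not run. A fit with a library left out has 1 library in 1 condition, assumed to vary like the other pair. The cause of these differences was not tested. For the fits with a library left out, the share of all genes called is not given here. The same holds without the filter, with limma on log2(TPM + 0.1) and with DESeq2 and the block. In those settings the counts of members and parents cannot be set against the rate over all genes.

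Of the 25 named members, 9 changed direction under at least 1 library left out or another setting. Leaving out one library at a time, their log2 fold changes ran from -0.085 to 0.94 for Rpl17-ps3, -1.72 to 0.87 for Rps27a-ps2, -0.14 to 0.11 for Rpl3-ps1, -0.22 to 0.27 for Rps12-ps3, -0.14 to 0.26 for Rpl31-ps8, -0.13 to 0.30 for Rpl9-ps6, -0.15 to 0.83 for Rpl21-ps15, -0.18 to 0.80 for Rpl17-ps5 and -2.13 to 0.65 for Rps26-ps1. The fits with a library left out had no block, so they do not remove differences between the experiments. Rps27a-ps2, for example, was lower with PEDF in both experiments. With the block and length offset, Rps12-ps3 changed by -0.060, Rpl31-ps8 by -0.0018 and Rpl9-ps6 by -0.0052. With limma, Rps12-ps3 changed by -0.0053 for either pseudocount.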
